A study of Platichthys stellatus with 16 samples.

Results

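The translation initiation factors of the starry flounder (Platichthys stellatus), a flatfish, were examined in RNA-seq libraries of brain, liver, gonad and muscle from females and males. All fish were 3 years old and untreated as far as the labels state, and each of the 8 groups (female and male brain, liver, gonad and muscle) held 2 libraries, 16 in all. Members were the assembled gene features whose closest Swiss-Prot protein has a description that begins with "Eukaryotic translation initiation factor" or "Eukaryotic initiation factor". This gave 63 of the 16270 features in the table, with 41 distinct symbols in 51 assembly clusters. Another 6 features, of the exchange factor eIF2B, have a description that begins otherwise and were not counted as members. Of the 63 members, 16 symbols were carried by several features. These may be gene copies, isoforms or fragments of 1 gene, and 23 members shared an assembly cluster with another member, so reads could have been split among them. They are told apart here by the assembly identifier. The names are those of the closest protein in another species, and for 14 members that match had an E-value above 1e-20.

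Initiation begins when a small ribosomal subunit, carrying eIF1, eIF1A, eIF3 and eIF5, takes up the initiator methionyl-tRNA bound to eIF2 and GTP. The cap of the mRNA is bound by eIF4E, which joins the scaffold eIF4G and the RNA helicase eIF4A, aided by eIF4B and eIF4H, and the subunit then scans to a start codon where eIF5B helps the large subunit to join. Supply is controlled through kinases that phosphorylate eIF2 alpha and through 4E-binding proteins that keep eIF4E from eIF4G. In vertebrate oocytes many mRNAs are stored in a repressed state and translated later, whereas somatic tissues translate most mRNAs as they are made.

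The libraries held 5134221 to 12972574 listed counts, and members had at least 3 counts in every library. Replicate libraries of a group correlated at r = 0.85 to 0.96 over all features and at 0.95 to 0.99 over the 63 members, on log2 CPM across features. The markers of liver summed to 39621 to 87881 FPKM (fragments scaled by the feature's effective length and by library size) in the liver libraries and to at most 160 elsewhere. Muscle markers summed to 18817 to 100145 in the muscle libraries and to at most 597 elsewhere, and brain markers to 383 to 2295 in brain and to at most 93.6 elsewhere. The sex of the gonads rests on the labels: of the ovary markers only CD9 was annotated, and it was higher in brain than in gonad, while the testis marker ODF3 stood at 51.4 and 53.0 FPKM in the female gonads and at 47.9 and 50.3 in the male gonads. No marker was at 0, since every feature in the table had at least 0.31 FPKM in each library. Nothing in the labels says whether tissues came from the same fish or whether the 2 libraries of a group came from separate fish, so p-values measure only the spread between these libraries. In such bulk samples, fewer cells of a type and less RNA per cell cannot be told apart.

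Levels of the members spanned a wide range. Averaged over the 16 libraries, 28 members exceeded 100 FPKM and 7 were below 10 FPKM. The FPKM of all 16270 features summed to between 889191 and 2209272 in a library, so the members' sum is given as a share of it. The members held 0.902% and 0.896% of the summed FPKM in ovary, 0.878% and 0.738% in testis, and 0.813% and 0.856% in male muscle. In ovary EIF4G2 DN148573_c2_g1 alone gave 1345 of the members' 11732 FPKM and 1491 of 11771. EIF1B DN136021_c3_g4 gave 418 and 1166 in ovary and 189 to 949 elsewhere. The implied lengths of both features are described below. Female muscle had 0.343% and 0.229% and female brain 0.334% and 0.428%, below every library of gonad and of male muscle, with male brain (0.558% and 0.640%) and the 4 liver libraries (0.430% to 0.671%) in between. In female liver replicate 1, at 0.473%, EIF3E alone gave 2571 of the members' 9338 FPKM, on a short implied length described below. The members' mean level was highest in male muscle for 20 of 63 members, or 31.7%, against 7.55% of all features. It was highest in the female gonad for 18 members (28.6%, against 25.4% of all features) and in the male gonad for 13 (20.6%, against 29.8%). Male brain held 5, female liver 4, female brain 2, male liver 1 and female muscle none, where the same groups held 15.7%, 2.98%, 11.5%, 5.57% and 1.48% of all features. For 35 members both libraries of the highest group stood above all other libraries, with 10 in the female gonad, 10 in the male gonad, 10 in male muscle, 4 in male brain and 1 in female brain. The share of all features separated in this way was not computed, so these counts are not read as particular to the members.

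**Figure D1:**
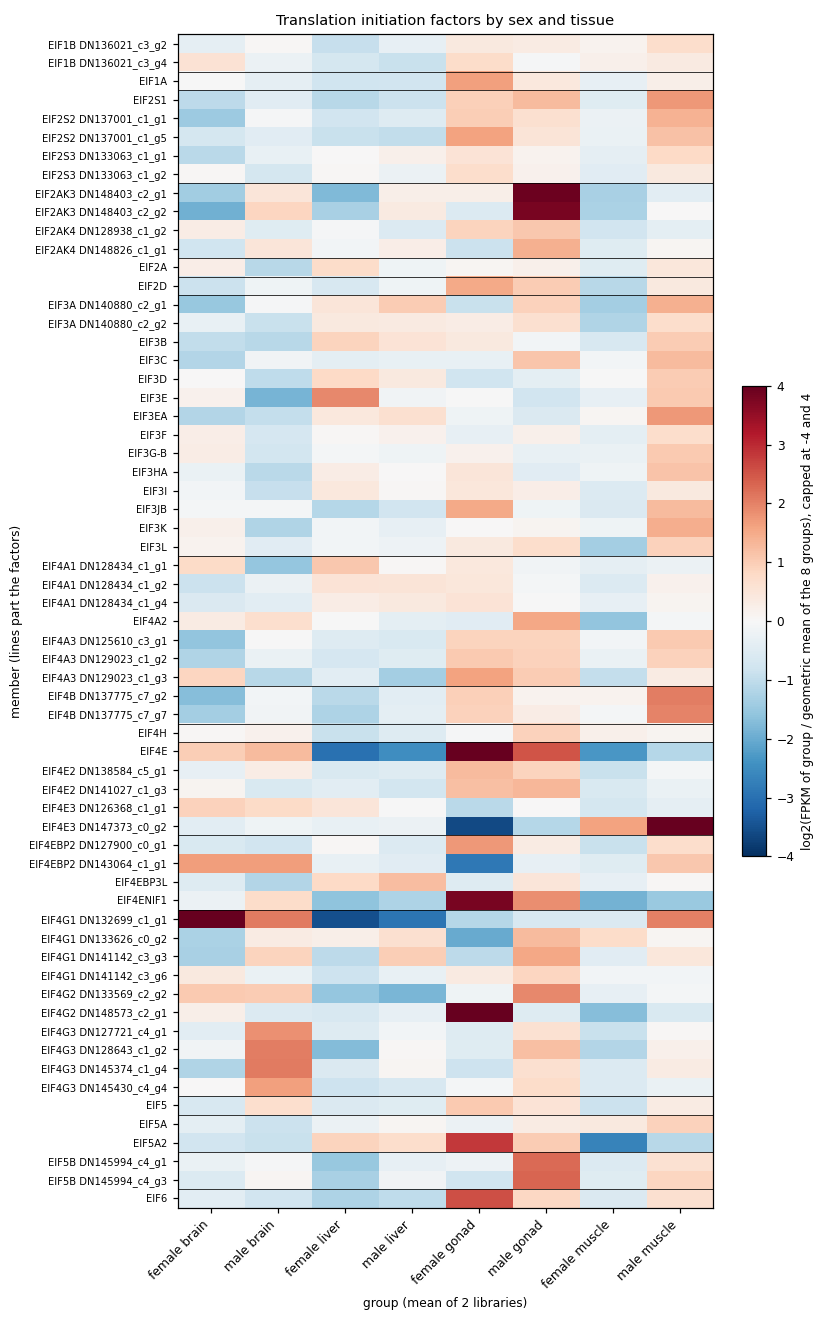
Mean FPKM of each of the 63 members (rows, parted by factor) in the 8 groups (columns), as log2 of the ratio to the member's geometric mean over the groups. EIF4G2 DN148573_c2_g1, EIF4E, EIF4ENIF1, EIF5A2 and EIF6 are darkest red in the female gonad, both EIF2AK3 features and both EIF5B features in the male gonad, and most eIF3 subunits in male muscle.

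Differences between groups were tested on counts with edgeR's quasi-likelihood test, with Benjamini-Hochberg adjustment over all 16270 features and a threshold of 0.05. In each tissue against the mean of the other 3, over both sexes, members were mostly lower in brain and mostly higher in muscle. In brain 6 members were higher and 38 lower, where 21.8% of all features were higher and 21.4% lower. In muscle 34 members were higher and 3 lower, against backgrounds of 21.7% and 23.3%. The muscle comparison averages the sexes, although the members held 0.813% and 0.856% of the summed FPKM in male and 0.343% and 0.229% in female muscle. How far each sex carried the muscle calls was not tested. In liver 20 were higher and 5 lower, against 24.0% and 22.2%, and in gonad 8 were higher and 25 lower, against 29.5% and 30.7%. Without male brain replicate 1 fewer members were called lower in brain, and the share of all features was not computed for that fit.

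The split of calls depended on how libraries were scaled. The main scaling, TMM, centres each comparison on the typical feature, and the median of all features was then between -0.10 and -0.04 (log2) in the 4 tissue comparisons. When libraries were scaled to the totals recovered from the ratio of counts to FPKM, that median was 1.01 in gonad, 0.30 in brain, -0.81 in liver and -0.79 in muscle. The members' calls then became 33 higher and 5 lower in gonad, 9 and 22 in brain, 8 and 23 in liver, and 14 and 9 in muscle. Under that scaling 58.4% of all features were higher and 9.74% lower in gonad, and 31.5% and 9.6% in brain. In liver these shares were 10.98% and 50.8%, and in muscle 9.7% and 49.2%. With the totals of the listed counts the members' calls were 21 and 8 in gonad, 9 and 26 in brain, 11 and 14 in liver, and 19 and 6 in muscle. Of all features 47.2% were then higher and 14.9% lower in gonad, and 31.2% and 10.1% in brain. The shares were 13.3% and 43.1% in liver, and 12.4% and 40.2% in muscle. A change of library totals shifts all features nearly alike, so the place of the members relative to the median of all features hardly depends on it by construction and is given once, under TMM. The median member lay 0.79 below the median of all features in brain, 0.81 above it in muscle, 0.36 above it in liver and 0.45 below it in gonad. Of the 63 members, 53 lay below the median of all features in brain, 56 above it in muscle and 40 below it in gonad.

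**Figure D2:**
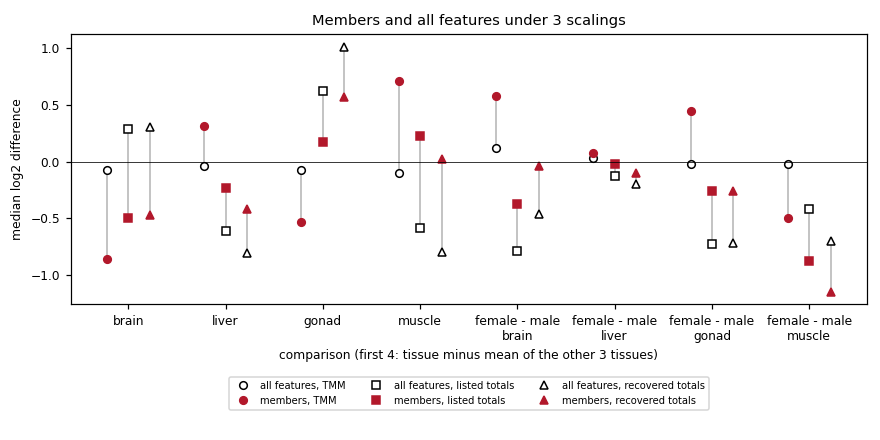
Median log2 difference of the 63 members (red) and of all 16270 features (open) in 8 comparisons under 3 scalings: TMM (circles), totals of listed counts (squares) and recovered totals (triangles). Both medians move together with the scaling, since a change of library totals shifts all features nearly alike: in gonad the median of all features is -0.08 under TMM and 1.01 under recovered totals.

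The eIF2 complex, which delivers the initiator tRNA, was represented by 5 features of its alpha (EIF2S1), beta (EIF2S2) and gamma (EIF2S3) subunits. All 5 passed the test as lower in brain and as higher in muscle under TMM scaling. Under recovered totals 4 passed as lower in brain and 3 as higher in muscle. EIF2S1 stood at 36.6 and 46.5 FPKM in female brain, 59.8 and 64.7 in male brain, and 241.9 and 319.9 in male muscle. Its 2 muscle groups did not overlap, as female muscle had 81.3 and 39.7. EIF2S1 was 1.47 ± 0.21 (log2 difference ± SE) higher in muscle than in the other tissues (adjusted p = 9.2e-05, edgeR). It was 1.35 ± 0.25 lower in brain (adjusted p = 0.00070). In gonad none of the 5 features passed under TMM. Under recovered totals EIF2S1 was 1.435 higher in gonad (adjusted p = 5.9e-05, edgeR), where the median of all features was 1.01. It was then 0.76 higher in muscle (adjusted p = 0.014), where that median was -0.79. The 5 features summed to a mean of 1379 FPKM in ovary, 1018 in testis, 1424 in male muscle and 568 in female muscle. The other groups had 535 to 623. The feature EIF2S2 DN137001_c1_g5 (E-value 5.0e-19) was higher in ovary than in testis, at 229.5 and 255.8 against 114.4 and 116.2 FPKM. The difference was 1.74 ± 0.39 (adjusted p = 0.0026), which limma on log2(FPKM + 0.1) did not call (adjusted p = 0.053). The feature EIF2S2 DN137001_c1_g1 of the same cluster (E-value 3.5e-73) overlapped, at 277.8 and 217.2 FPKM in ovary and 168.1 and 220.1 in testis. Under recovered totals edgeR gave 1.05 for the former (adjusted p = 0.040) and 0.23 for the latter (adjusted p = 0.73).

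The small factors that hold the scanning subunit differed in their pattern. EIF1A, which with eIF1 keeps the subunit open for scanning, was highest in ovary at 184.7 and 184.0 FPKM, with testis at 88.3 and 67.9 and no other library above 77.1. The ovary exceeded the testis by 1.93 ± 0.35 (adjusted p = 0.00080). EIF1B DN136021_c3_g2, a form of eIF1, ranged only from 66.9 FPKM in a female liver library to 405.1 in male muscle and was 1.32 ± 0.23 higher in muscle (adjusted p = 0.00050), a call that was lost under recovered totals (log2 difference 0.57). The other EIF1B feature, DN136021_c3_g4, is 308 bases long, and the ratio of its counts to its FPKM implied an effective length of 8.32 to 22.5 bases, so its FPKM rests on a very short length. EIF5, the protein that stimulates GTP hydrolysis by eIF2, stood at 141.4 and 85.4 FPKM in ovary and at 86.5 and 75.7 in testis. EIF2D, known in mammals for initiation and recycling outside the main pathway, was low throughout: 18.7 and 18.5 FPKM in ovary, 13.9 and 12.4 in testis and at most 9.54 in other libraries.

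EIF5B, the GTPase that joins the subunits, was carried by 2 features of 1 assembly cluster, both highest in testis. EIF5B DN145994_c4_g3 had 126.5 and 172.4 FPKM in testis, 20.9 and 13.8 in ovary, and at most 60.03 elsewhere. EIF5B DN145994_c4_g1 had 300.1 and 336.0 in testis, 57.5 and 57.1 in ovary, and at most 104.7 elsewhere. The implied effective length of this 742-base feature was 113 to 157 bases, against 1267 to 1319 for the other. Its FPKM therefore rests on a short length. Testis and ovary did not overlap in either feature. The log2 difference of ovary against testis was -2.44 ± 0.52 for the former (adjusted p = 0.0021) and -2.09 ± 0.53 for the latter (adjusted p = 0.0059).

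The eIF2 alpha kinases PERK (EIF2AK3), which responds to unfolded protein in the endoplasmic reticulum, and GCN2 (EIF2AK4), which responds to lack of amino acids, were each carried by 2 features. EIF2AK3 DN148403_c2_g2 stood at 180.8 and 193.4 FPKM in testis, whereas ovary had 10.5 and 7.61 and no library of another tissue exceeded 25.8. EIF2AK3 DN148403_c2_g1, of the same cluster, had 91.0 and 62.3 in testis, 6.76 and 5.17 in ovary and at most 7.59 elsewhere. The differences of ovary against testis were -3.69 ± 0.53 (adjusted p = 0.00018) and -3.04 ± 0.57 (adjusted p = 0.00094), a 12.9-fold and an 8.22-fold lower level in ovary. EIF2AK4 DN148826_c1_g1 was also lower in ovary, at 2.82 and 4.15 against 15.7 and 18.4 FPKM (-1.63 ± 0.44, adjusted p = 0.0080), but this call was lost without female gonad replicate 1 (adjusted p = 0.051). The other EIF2AK4 feature, DN128938_c1_g2, matched its protein only weakly (E-value 1.3e-06) and had 8.86 and 22.3 FPKM in ovary and 23.3 and 11.8 in testis.

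The eIF3 complex, the largest initiation factor, which keeps the subunits apart and recruits the mRNA, gave 14 features with 13 symbols. It held 0.413% and 0.405% of the summed FPKM in male muscle, more than in any other library, and 0.290% and 0.303% in female liver. In female liver replicate 1, EIF3E alone gave 2571 of the 5721 summed eIF3 FPKM, a value that rests on a short implied length (below). In brain the complex held 0.139% and 0.155% in females and 0.161% and 0.203% in males, and in female muscle 0.147% and 0.080%. In 11 of 14 features male muscle had the highest mean. Under TMM 13 of 14 passed as lower in brain and none as higher, 11 as higher in muscle, 9 as higher in liver and 9 as lower in gonad, with none in the opposite direction in any of the 3. Under recovered totals the counts were 8 lower in brain, 6 higher in muscle, 4 higher and 1 lower in liver, and in gonad 3 higher and 1 lower. The gonad direction of the calls thus did not hold, but 58.4% of all features were then higher in gonad and 9.74% lower. The shares of all features in the other tissues under that scaling are given above. Relative to the median of all features under TMM, each of the 14 lay below it in brain and in gonad and above it in muscle, and 13 lay above it in liver.

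EIF3EA, a form of the subunit EIF3E, had 1072 and 1006 FPKM in male muscle against 129.5 and 151.2 in female brain and 125.2 and 201.1 in male brain. Female muscle, at 420.5 and 242.4, did not overlap male muscle, and liver had 336.1 to 606.0. It was 1.93 ± 0.22 higher in muscle (adjusted p = 1.5e-05) and 1.80 ± 0.27 lower in brain (adjusted p = 0.00016). EIF3B, a scaffold subunit, had 131.8 and 387.5 FPKM in female liver and 242.1 and 162.0 in male liver, against 56.8 to 82.4 in brain. It was 1.70 ± 0.25 higher in liver (adjusted p = 0.00011) and 1.79 ± 0.31 lower in brain (adjusted p = 0.00040). EIF3D, a subunit that can itself bind the cap in human cells, was 1.59 ± 0.30 higher in liver (adjusted p = 0.00082) and 1.92 ± 0.37 lower in gonad (adjusted p = 0.00058). The feature named EIF3E shared an assembly cluster with EIF3EA and matched its protein more weakly (E-value 1.9e-15, against 5.6e-109 for EIF3EA). EIF3E varied within groups: female liver replicate 1 had 2571 FPKM, whereas the other 3 liver libraries had 207.7 to 496.3. Its counts there were 5501 against 2683, 4878 and 2180, and the implied effective length in that library was 178 bases against 605 to 643 in the other 3, so most of the gap in FPKM lies in the length and not in the counts.

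EIF3JB, a form of the loosely bound subunit that acts near the decoding site, had another distribution. It stood at 206.0 and 199.1 FPKM in ovary and 57.4 and 68.2 in testis, which did not overlap, at 153.0 and 188.8 in male muscle, and at 28.4 to 51.0 in liver. The ovary exceeded the testis by 2.40 ± 0.35 (adjusted p = 0.00020). Of the other 13 eIF3 features only EIF3HA passed this test, at 1.65 ± 0.47 (adjusted p = 0.011), and that call was lost without male gonad replicate 2 (adjusted p = 0.11) and under recovered totals (0.95, adjusted p = 0.080).

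The helicase eIF4A gave 7 features, of which EIF4A1 and EIF4A2 are the paralogs that unwind the leader of the mRNA. EIF4A2 had 628.8 and 568.3 FPKM in testis and 143.3 and 155.9 in ovary, with no library of another tissue above 339.0 and female muscle lowest at 53.6 and 82.5. On counts the ovary and testis differed by -0.91 ± 0.40, which did not pass (adjusted p = 0.078). The ratio of the mean FPKM values was wider, at -2.0 on the log2 scale. The scaling of the libraries makes up most of the gap, since the counts gave -1.61 under recovered totals (adjusted p = 0.0047), and the rest is the implied effective length, of 2644 bases in ovary and 2013 in testis. EIF4A1 DN128434_c1_g2 was 1.48 ± 0.23 higher in liver (adjusted p = 0.00016), with 307.9 and 685.2 FPKM in female liver and 540.4 and 423.0 in male liver, a call that limma on log2(FPKM + 0.1) did not make (adjusted p = 0.050). EIF4A3, which is a core of the exon junction complex deposited at splicing and not a cap-complex helicase, gave 3 features. EIF4A3 DN129023_c1_g2 had its lowest mean in female brain, at 48.6 and 78.4 FPKM, which female liver overlapped at 61.8 and 122.2. Its highest mean was in ovary, at 335.4 and 271.9. Testis, at 263.9 and 290.65, and male muscle, at 252.1 and 307.1, overlapped the ovary. The feature was 1.36 ± 0.21 lower in brain than in the other tissues (adjusted p = 0.00021).

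The helicase cofactor eIF4B was carried by 2 features of 1 cluster, and both were highest in male muscle. EIF4B DN137775_c7_g2 had 232.4 and 362.9 FPKM there, 107.9 and 49.7 in female muscle, 188.1 and 89.3 in ovary, and at most 70.1 in brain. It was 2.11 ± 0.23 higher in muscle (adjusted p = 9.9e-06) and 1.55 ± 0.28 lower in brain (log2 difference -1.55, adjusted p = 0.00063). EIF4B DN137775_c7_g7 gave 1.98 ± 0.26 in muscle (adjusted p = 3.7e-05). The related cofactor EIF4H (E-value 7.9e-08) ranged from 45.9 FPKM in a female liver library to 279.3 in a testis library.

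The level of the cap-binding protein EIF4E fell into steps by tissue. It stood at 270.3 and 236.4 FPKM in ovary, 81.4 and 81.3 in testis, 26.8 to 37.7 in the 4 brain libraries, 1.10 to 3.42 in liver and 1.91 to 10.01 in muscle. Ovary, testis and brain did not overlap with each other or with liver and muscle, which overlapped. EIF4E was 3.39 ± 0.22 higher in gonad (adjusted p = 7.5e-08) and 2.84 ± 0.29 lower in liver (adjusted p = 4.4e-06). The ovary exceeded the testis by 2.34 ± 0.43, or 5.05-fold (adjusted p = 0.00082). This feature is 1 of 5 of the eIF4E family, and the closest Swiss-Prot protein does not tell which fish paralog it is. The features of EIF4E2, which binds caps but not eIF4G in mammals, were less restricted, at 7.48 to 63.8 FPKM for EIF4E2 DN138584_c5_g1 and 10.8 to 72.3 for EIF4E2 DN141027_c1_g3, with the highest levels in gonad for both.

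The 2 features of EIF4E3, another class of cap-binding protein, differed in where they were high. EIF4E3 DN126368_c1_g1 was highest in brain, at 20.6 to 27.4 FPKM, and stood at 6.15 and 6.02 in ovary and 11.6 and 14.5 in testis. EIF4E3 DN147373_c0_g2, whose match was weaker (E-value 5.9e-13), had 205.9 and 208.5 FPKM in male muscle, 41.4 and 23.8 in female muscle, at most 12.1 in any other library, and 0.42 and 1.36 in ovary. It was 4.60 ± 0.26 higher in muscle than in the other tissues, a 24.3-fold difference (adjusted p = 2.5e-08). The sexes did not overlap in muscle, but the difference there of -1.94 ± 0.51 did not pass (adjusted p = 0.056).

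The proteins that hold eIF4E were each distributed in their own way. EIF4ENIF1, also called 4E-T, binds eIF4E, brings it into RNA granules, and is part of a repressing complex in Xenopus oocytes. It had 106.0 and 143.1 FPKM in ovary, 33.5 and 32.1 in testis, 13.5 and 16.5 in male brain, and at most 9.59 in the other libraries. It was 2.77 ± 0.16 higher in gonad (adjusted p = 3.7e-08), and ovary exceeded testis by 2.72 ± 0.32, or 6.60-fold (adjusted p = 6.2e-05). The 4E-binding protein EIF4EBP3L was highest in liver, with 81.7 to 146.4 FPKM in the 4 liver libraries against 14.8 to 83.7 elsewhere, and was 2.13 ± 0.25 higher there (adjusted p = 1.6e-05).

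The 2 features of EIF4EBP2, a repressor of eIF4E controlled by mTOR, were high in different tissues. EIF4EBP2 DN127900_c0_g1 had 142.4 and 120.4 FPKM in ovary, 60.5 and 39.0 in testis and 20.5 to 26.3 in brain. EIF4EBP2 DN143064_c1_g1 had 2.22 and 3.15 in ovary, 15.8 and 15.4 in testis and 54.1 to 69.6 in brain. The former was 2.02 ± 0.42 higher in ovary than in testis (adjusted p = 0.0018), while the latter was 1.76 ± 0.37 lower (adjusted p = 0.0019). In brain the former was 1.34 ± 0.26 lower (adjusted p = 0.00095) and the latter 1.79 ± 0.19 higher (adjusted p = 8.2e-06) than in the other tissues. Both kept these directions under each scaling tried.

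**Figure D3:**
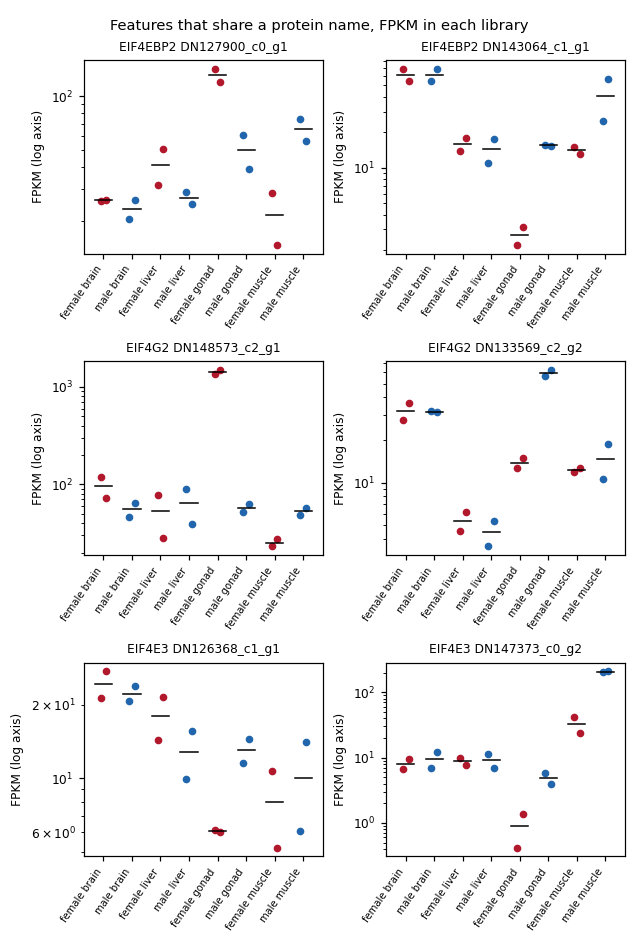
FPKM (log axis) in each of the 16 libraries for EIF4EBP2, EIF4G2 and EIF4E3, each with 2 features (females red, males blue, bars at the group mean). The 2 features of a name have different high groups: EIF4EBP2 DN127900_c0_g1 is highest in the female gonad at 142.4 and 120.4, where EIF4EBP2 DN143064_c1_g1 is lowest at 2.22 and 3.15.

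The scaffold family eIF4G gave 10 features, and it held the member with the widest ovary to testis difference. EIF4G2, known as DAP5 or p97, lacks the region that binds eIF4E and supports initiation that does not depend on it. EIF4G2 DN148573_c2_g1 had 1345 and 1491 FPKM in ovary, 51.8 and 63.3 in testis, and 23.2 to 119.9 in all other libraries. In FPKM the ovary libraries were separate from all others by an order of magnitude. The gap was narrower in counts, at 28253 and 26691 in ovary and at most 3469 elsewhere, in a male liver library. On counts under TMM, ovary exceeded testis by 4.54 ± 0.54 on the log2 scale, or 23.2-fold (adjusted p = 6.3e-05). Under recovered totals the difference was 3.84 (adjusted p = 0.00014, edgeR). Its implied effective length was 1380 bases in ovary and 2325 in testis, of 5167 assembled bases, a difference whose source was not tested. The other feature, EIF4G2 DN133569_c2_g2, went the other way, with 12.6 and 14.9 FPKM in ovary against 56.2 and 62.5 in testis (-1.33 ± 0.28, adjusted p = 0.0020).

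Of the EIF4G1 features, EIF4G1 DN133626_c0_g2 was lower in ovary, at 3.30 and 3.94 FPKM against 35.3 and 35.3 in testis (-2.58 ± 0.51, adjusted p = 0.0013). EIF4G1 DN132699_c1_g1, whose match to EIF4G1 was weak (E-value 1.9e-08), was instead highest in female brain, at 143.2 and 338.3 FPKM. Male brain, at 45.5 and 33.3, overlapped male muscle, at 34.4 and 40.2, and liver had 0.35 to 1.49. The feature was 4.30 ± 0.22 higher in brain than in the other tissues (adjusted p = 1.9e-08). It was also called as higher in muscle (log2 difference 2.38), in every alternative. The 4 features of EIF4G3, from 4 clusters, each had their highest mean in male brain, where they stood at 12.6 to 29.9 FPKM, whereas in female brain they had 1.20 to 8.34. Outside the brain they had at most 16.9 FPKM, in a testis library.

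EIF5A, which carries the modified residue hypusine and helps ribosomes past stalling sequences, was common in every group, from 187.2 FPKM in a male brain library to 689.7 in male muscle. Its paralog EIF5A2 was much more uneven, with 240.8 and 263.5 FPKM in ovary, 73.3 and 69.2 in testis, 56.1 to 75.4 in liver, 14.0 to 24.7 in brain and 4.95 to 23.3 in muscle. EIF5A2 was 1.49 ± 0.19 higher in gonad (adjusted p = 1.9e-05) and 1.84 ± 0.19 higher in liver (adjusted p = 3.9e-06), and 1.82 ± 0.23 lower in muscle (adjusted p = 2.9e-05). The ovary exceeded the testis by 2.58 ± 0.37, or 5.98-fold (adjusted p = 0.00019). EIF6, which binds the large ribosomal subunit and keeps it from joining the small one, had 458.4 and 395.9 FPKM in ovary, 126.8 and 128.9 in testis and 21.4 to 135.4 elsewhere. The ovary exceeded the testis by 2.40 ± 0.42, or 5.27-fold (adjusted p = 0.00060).

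Over all members, 17 were higher in ovary than in testis and 9 lower, where 23.3% of all features were higher and 23.8% lower. The median member lay 0.46 above the median of all features, but the calls became 10 higher and 13 lower under recovered totals and 10 and 14 under listed totals, where the median of all features was -0.72 and -0.73. Of all features 11.6% were higher and 34.8% lower under recovered totals, and 11.8% and 35.4% under listed totals. Under TMM fewer members were called higher without male gonad replicate 2, a fit for which the share of all features was not computed. Of the 20 members named by size, 16 kept their call with any 1 library left out, and the others were EIF4A1 DN128434_c1_g1, EIF4E3 DN147373_c0_g2, EIF3HA and EIF2AK4 DN148826_c1_g1. The FPKM of the sexes did not overlap in gonad for 43 of 63 members, or 68.3%, against 77.8% of all features. The sum of the leukocyte markers differed in this comparison: PTPRC, CD74 and the plastin LCP1 summed to 546 and 4027 FPKM in testis and to 52.4 and 130 in ovary, over 3 features of which none was at 0. Of 4 features with these symbols, a digestive proteinase included, edgeR called 2 as lower in ovary and did not call the other 2. The part of the leukocyte markers in the result was not tested.

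**Figure D4:**
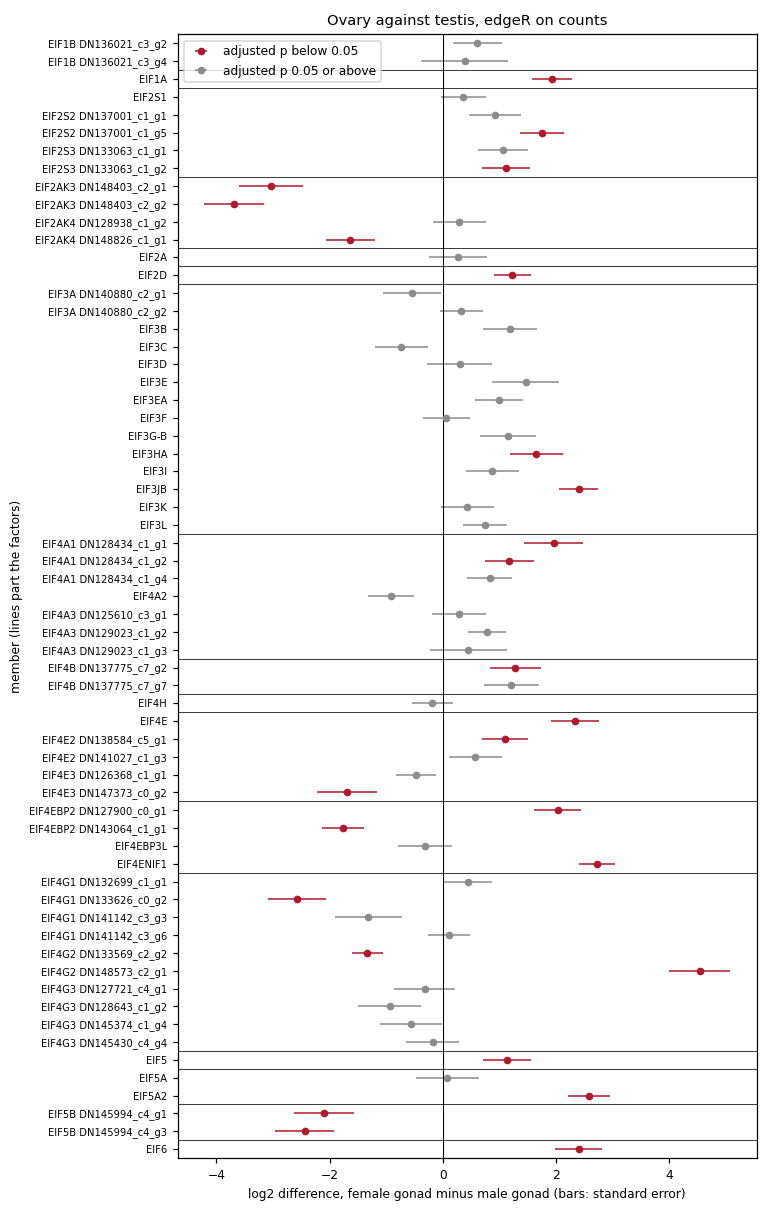
Log2 difference between female and male gonad with its standard error for each of the 63 members, parted by factor (red: adjusted p below 0.05 in edgeR under TMM). EIF4G2 DN148573_c2_g1 lies farthest to the right at 4.54, and EIF2AK3 DN148403_c2_g2 farthest to the left at -3.69.

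The sex difference in gonad was then set against the mean sex difference of brain, liver and muscle in 1 model. Here 15 members were higher and 7 lower, against 17.2% and 18.5% of all features. Fewer were called higher without male gonad replicate 2, where the share of all features was not computed. The contrast contains the difference between ovary and testis, so it is no independent test of it. EIF4G2 DN148573_c2_g1 gave 5.16 ± 0.60 (adjusted p = 0.00011), and its sex differences elsewhere were -0.40 in brain, -1.02 in liver and -0.45 in muscle, none of which passed. EIF3JB gave 2.65 ± 0.39 (adjusted p = 0.00039), EIF5A2 2.52 ± 0.42 (adjusted p = 0.00071), EIF4ENIF1 2.51 ± 0.36 (adjusted p = 0.00033) and EIF4E 2.47 ± 0.49 (adjusted p = 0.0020). EIF4G1 DN133626_c0_g2 gave -2.79 ± 0.57 (adjusted p = 0.0026), with a sex difference of 1.68 in muscle that did not pass. Each of these 6 kept its call and direction in every alternative tried.

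**Figure D5:**
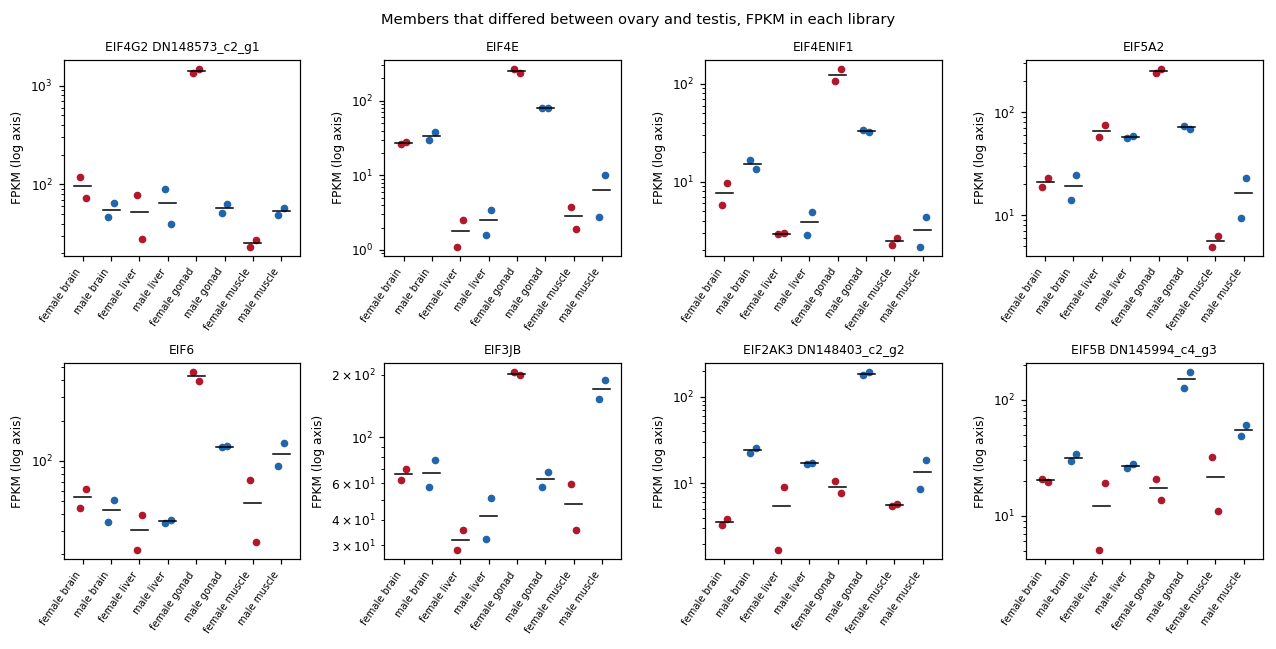
FPKM (log axis) in each of the 16 libraries for 8 members called between ovary and testis (females red, males blue, bars at the group mean). The first 6 are highest in the female gonad, with EIF4G2 DN148573_c2_g1 at 1345 and 1491 and EIF3JB close behind in male muscle, and EIF2AK3 DN148403_c2_g2 and EIF5B DN145994_c4_g3 are highest in the male gonad.

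In brain 17 members were higher in females and 3 lower, where 21.4% of all features were higher and 18.4% lower. Of the 17, 9 were eIF3 features, such as EIF3K with 178.4 and 175.2 FPKM in female and 64.2 and 70.7 in male brain (2.09 ± 0.49, adjusted p = 0.0078). These calls were fragile: most were lost when either male brain library was left out. The share of all features in those fits was not computed, so this loss is not read as particular to the members. Under recovered totals 4 were higher and 11 lower. Of all features 10.5% were higher and 26.7% lower under that scaling. The call that remained with either male brain library left out and in every alternative was EIF4G1 DN132699_c1_g1. Under TMM it was 15.1-fold higher in female brain (3.92 ± 0.44, adjusted p = 0.0014, edgeR). The log2 difference ran from 2.47 to 4.32 over the alternatives and was 3.38 under recovered totals. Its implied effective length was 1231 bases in female and 747 in male brain, a difference whose source was not tested. Those lower in females were EIF4G3 DN145374_c1_g4 (-2.56 ± 0.57, adjusted p = 0.0066), EIF2AK3 DN148403_c2_g2 (-2.21 ± 0.50, adjusted p = 0.0072) and EIF4G3 DN127721_c4_g1 (-1.52 ± 0.55, adjusted p = 0.041), each lost without female brain replicate 1. With the replicate number as a block within each sex, 5 members were lower, and the share of all features was not computed for that fit. The FPKM of the sexes did not overlap in brain for 48 of 63 members, or 76.2%, against 76.0% of all features. Markers differed between these libraries. The single blood marker stood at 1237 and 3941 FPKM in female and 3.15 and 111 in male brain, and the brain markers summed to 1644 to 2295 in female and 383 to 563 in male brain. Of the 5 brain marker features, edgeR called 1 as higher in female brain and did not call the other 4. The part of these markers in the result was not tested.

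In liver no member was called between the sexes by edgeR, against 2.78% of all features. Unadjusted edgeR p-values below 0.05 were found for 4 of 63 members. The share of all features below it was not computed, so this count is not read as a sex difference. DESeq2 called 2 as lower in females, against 4.18% of all features. The blood marker was at 425 and 1630 FPKM in female and at 5.34 and 11.5 in male liver, and the FPKM of the sexes did not overlap for 15 of 63 members (23.8%, against 45.6% of all features).

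In muscle none was higher in females and 2 were lower, against 1.20% and 1.75% of all features. They were EIF2S1 (-1.73 ± 0.40, adjusted p = 0.037) and EIF4G1 DN132699_c1_g1 (-1.86 ± 0.42, adjusted p = 0.032), and the adjusted p rose to as much as 0.26 and 0.17 with 1 library left out. DESeq2 called 1 higher and 7 lower, against 3.4% and 5.49% of all features. The fit with the replicate block gave 1 higher and 3 lower, and the share of all features was not computed for it. The median member was 0.48 below the median of all features, and each of the 14 eIF3 features and 5 eIF2 features lay below that median, though only EIF2S1 of these 19 passed the test. Under recovered totals 19 members were lower, against 12.2% of all features. The FPKM of the sexes did not overlap for 47 of 63 members (74.6%, against 49.6% of all features). Muscle markers summed to 91586 and 100145 FPKM in female and to 18817 and 28692 in male muscle, over 7 features, and the blood marker stood at 514 and 1619 in female and 29.6 and 36.0 in male muscle. Of the 7 muscle marker features, edgeR called 1 as higher in female muscle and did not call the other 6. The part of these markers in the result was not tested.

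A pair of further lists placed the members beside their pathway. Partners and regulators of initiation, 50 symbols of which 37 were found, gave 62 features, and elongation and termination factors gave 22. The elongation and termination factors were called in the tissue comparisons with 1 higher and 15 lower in brain, 15 higher and 3 lower in muscle, 12 higher and 4 lower in liver, and 4 higher and 15 lower in gonad. Their medians were -1.07, 1.58, 1.19 and -1.55, beside the members' -0.86, 0.71, 0.32 and -0.53 and medians of all features between -0.10 and -0.04. The partners and regulators gave 4 higher and 27 lower in brain, 30 and 4 in muscle, 20 and 11 in liver, and 13 and 23 in gonad. These counts stand against the shares of all features given above for the same comparisons, and they too moved with the scaling. Under recovered totals the elongation and termination factors gave 6 higher and 6 lower in gonad and 6 and 8 in liver. The partners then gave 36 and 5 in gonad, 6 and 23 in liver and 16 and 18 in muscle. As shares, the partners had 58.1% and 8.06% in gonad, 9.68% and 37.1% in liver, and 25.8% and 29.03% in muscle. All features under that scaling had 58.4% and 9.74% in gonad, 10.98% and 50.8% in liver, and 9.7% and 49.2% in muscle.

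Between ovary and testis 13 partners were higher and 14 lower, or 21.0% and 22.6%, close to the 23.3% and 23.8% of all features. Of the elongation or termination features 7 were higher and 1 lower, or 31.8% and 4.55%. Under recovered totals the partners gave 5 higher and 18 lower and the elongation or termination features 1 and 1. Of all features 11.6% were then higher and 34.8% lower. The elongation factor 1-alpha feature DN124776_c0_g1, whose closest nucleotide match in the authors' annotation was a sole mRNA of the isoform named 42Sp50, had 643 ± 146 FPKM (SD, n = 2) in ovary and 30.6 ± 10.6 in testis. It was 5.37 ± 0.49 higher in ovary (adjusted p = 1.8e-05). PPP1R15B, a subunit of the phosphatase that removes phosphate from eIF2 alpha, had 125 ± 16.5 FPKM in ovary and 21.5 ± 1.98 in testis (3.16 ± 0.43, adjusted p = 0.00014). DENR, a partner in recycling and reinitiation, had 485 ± 83.3 in ovary and 121 ± 2.16 in testis, with a difference of 2.66 ± 0.34 (adjusted p = 9.7e-05). Lower in ovary were GIGYF1 DN142072_c1_g1, a partner of EIF4E2 (-4.51 ± 0.51, adjusted p = 5.0e-05), and LARP1 DN145615_c4_g2, which in mammals binds the mRNAs of ribosomal proteins (-2.84 ± 0.51, adjusted p = 0.00074).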

How the data were processed

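Libraries were RNA-seq of total RNA on an Illumina HiSeq. Per the file headers, the authors deposited 1 table of 16270 assembled features, with identifiers in the style of the Trinity assembler. Its expected counts were estimated by the authors with RSEM, per the submitters' processing notes. Its FPKM values, so named in the file headers, are the authors' own. That they scale by effective length and library size is read from the ratio of counts to FPKM. Versions, read filters and strandedness are not stated in these sources, so overlapping or antisense transcripts may share counts. The series' text names pituitary where the sample labels name muscle, and the labels were followed. Another 16 value columns, which belong to no listed sample, were not used.

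Expected counts were rounded to whole numbers and tested in edgeR 4.0.16 (R 4.3.3), with TMM factors of 0.623 to 1.84, 8 group means, 8 residual degrees of freedom, a two-sided quasi-likelihood F test, and Benjamini-Hochberg adjustment over all 16270 features. The standard error is the size of the log2 difference divided by the square root of F. No feature was removed. Since with 2 libraries a group an exact permutation cannot go below p = 0.333, no such test was run. Counts were divided by FPKM and by length less a fitted offset of 240 to 290 bases. The most common value over features gave library totals of 9659787 to 16643043, of which the table lists 51.4 to 80.5%. DESeq2 1.42.0 and limma 3.58.1 served as alternatives. The code was tested on simulated data.

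The members and lists were chosen with earlier results of these data known. Any member could be named with its level; for a comparison, the members past the threshold were named in order of the size of their log2 difference, up to 20, or 6 for the sex difference in gonad against other tissues, and list genes up to 6. A digestive proteinase that shares the symbol LCP1 was left out of the leukocyte markers. Annotation quality (E-value) was added as an alternative after seeing the data. Sequences were not used here.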

Additional observations from a re-analysis of the deposited data

Results flagged for a closer look

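Of the members, 6 were singled out because their sex difference in gonad differed from the mean sex difference of brain, liver and muscle by a test of the difference itself, with the size of each in log2 units. The gonad difference exceeded the mean of the other tissues by 5.16 for EIF4G2 DN148573_c2_g1, by 2.65 for EIF3JB, by 2.52 for EIF5A2, by 2.51 for EIF4ENIF1 and by 2.47 for EIF4E. For EIF4G1 DN133626_c0_g2 the difference of differences was -2.79. Groups of 2 libraries are too small for a search for outlying samples.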

How the results depend on the processing

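With DESeq2 and with the replicate number as a block, the 128 named results kept their direction and call; RLE factors ended 2 calls, totals of listed counts 25, recovered totals 35, and limma on log2(FPKM + 1) or log2(FPKM + 0.1) 41 and 42. A filter of 10 counts in 2 libraries removed no feature. In all, 74 of 128 were called in the same direction in every alternative, and 98 lost no call to a left-out library. A single result reversed: EIF4G2 DN133569_c2_g2 between the brains, which gave -0.021 with totals of listed counts and -0.001 with limma at either pseudocount. The cause of these changes was not tested, beyond the shift in the median of all features that other scalings bring.

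Counts of members (higher, lower) moved by over 1.5 times as follows. With totals of listed counts they were 11 and 14 in liver, 21 and 8 in gonad, 19 and 6 in muscle, 3 and 19 between the brains, 10 and 14 between the gonads, and 7 lower between the muscles. With recovered totals they were 22 lower in brain, 8 and 23 in liver, 33 and 5 in gonad, 14 and 9 in muscle, 4 and 11 between the brains, 10 higher between the gonads and 19 lower between the muscles. With limma at a pseudocount of 1 they were 18 lower in brain, 7 and 30 in liver, 31 and 4 in gonad, 12 and 9 in muscle, 3 and 10 between the brains, 9 and 14 between the gonads, and 15 lower between the muscles. At 0.1 they were 19 lower in brain, 6 and 28 in liver, 31 and 4 in gonad, 13 and 8 in muscle, 3 and 8 between the brains, 8 and 14 between the gonads, and 16 lower between the muscles. DESeq2 gave 6 lower between the brains, 2 lower between the livers, and 1 higher and 7 lower between the muscles. With members of E-value at most 1e-20 alone, 1 was lower between the muscles. The shares of all features moved too. With totals of listed counts 7.12% were higher and 36.0% lower between the brains, and 4.94% lower between the muscles. Limma at a pseudocount of 1 called 9.47% lower in brain, and 9.02% higher and 53.3% lower in liver. It called 57.0% higher and 8.30% lower in gonad, and 8.22% and 51.3% in muscle. Between the sexes it called 10.6% and 25.8% in brain, 12.3% and 32.2% in gonad, and 8.31% lower in muscle.

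Leaving out 1 library gave ranges, higher then lower, of 5 to 8 and 21 to 39 in brain, 17 to 24 and 4 to 7 in liver, 7 to 9 and 18 to 29 in gonad, and 27 to 39 and 3 to 3 in muscle. Between the sexes they were 1 to 20 and 0 to 7 in brain, 0 to 0 and 0 to 5 in liver, 9 to 22 and 8 to 10 in gonad, and 0 to 1 and 0 to 4 in muscle. For the sex difference in gonad against that of the other tissues the counts moved as well. The shares of all features were not computed for the fits with 1 library left out, so these ranges are not read as particular to the members.

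Whether replicate numbers pair the samples was not settled: same-numbered libraries deviated together at over 0.1 in all 6 pairs of tissues in males (0.183 to 0.604) but in 3 of 6 in females (-0.326 to 0.220), and the labels do not say. With the replicate block, 5 members were lower between the brains and 1 was higher between the muscles. Depth limited little here, as only 4 members had a value under 10 counts.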
